A study of Mus musculus with 6 samples.

Results

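The Schlafen genes are a family of 7 protein-coding genes examined here in mouse fibro/adipogenic progenitors: Slfn1, Slfn2, Slfn3, Slfn4, Slfn5, Slfn8 and Slfn9. They were taken by symbol from the probe sets annotated to exactly 1 gene. Where a gene has several, the probe set is chosen by the highest mean level, but each of the 7 had a single one, so no measured value decided a member. The values stand among those of 19938 named genes. Fibro/adipogenic progenitors (FAPs) are stromal cells of muscle, marked by Pdgfra, that give rise to fibroblasts and to fat cells. The FAPs were isolated from wild-type male C57Bl/6 mice aged 8 to 12 weeks. The tibialis anterior muscles had been injured with 30 µL of 50% glycerol, then injected after 3 days with a vivo-morpholino (VMO), an antisense oligomer taken up by cells in the body that covers a chosen stretch of RNA, and the cells were taken 2 days later. The 3 groups received VMOs against polyadenylation sites (pA-VMO), a VMO that blocks a 5' splice site (5'ss-VMO) or a control VMO. The study concerns intronic polyadenylation of Pdgfra, which encodes a receptor for platelet-derived growth factor. Each group had 2 arrays, each made from cells pooled from 4 mice, and every group carried the injury and an injected VMO. No uninjured or uninjected sample was analysed here.

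Schlafen proteins share a conserved N-terminal core that in several members binds or cleaves RNA. Mouse members are sorted by length into group I (Slfn1 and Slfn2), group II (Slfn3 and Slfn4) and group III (Slfn5, Slfn8 and Slfn9), whose long C-terminal part resembles a helicase. Several are induced by type I interferon, and they are best known for restraining cell growth and virus replication in lymphocytes, macrophages and fibroblasts. The genes lie side by side in 1 cluster on chromosome 11.

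Promoter sequences are shown for 2 pairs of members because the pairs differ in the letters they share. All 7 members had a promoter window in the RefSeq promoter table (GRCm38.p6), which runs from 250 bases before to 50 bases after a transcription start. Slfn8 had 2 windows in that table, and only the window with its start nearest the gene's outermost start was used for it. The 120 bases before the start are printed 5′ to 3′ on the gene's own strand. Capitals mark the core of an interferon-stimulated response element (GAAA, any 2 bases, then GAAA, or TTTC, any 2 bases, then TTTC on the other strand) in Slfn9 and Slfn8, and a run of 9 letters shared by the windows of Slfn1, Slfn2, Slfn3 and Slfn4 in the other pair.
Slfn9 (chr11:82991831-82991950, minus strand): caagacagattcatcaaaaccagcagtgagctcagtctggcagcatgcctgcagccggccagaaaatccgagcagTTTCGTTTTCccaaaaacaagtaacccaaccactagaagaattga
Slfn8 (chr11:83020811-83020930, minus strand): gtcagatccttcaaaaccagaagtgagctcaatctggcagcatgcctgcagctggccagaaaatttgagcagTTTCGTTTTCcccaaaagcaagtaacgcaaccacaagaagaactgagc
Slfn4 (chr11:83175066-83175185, plus strand): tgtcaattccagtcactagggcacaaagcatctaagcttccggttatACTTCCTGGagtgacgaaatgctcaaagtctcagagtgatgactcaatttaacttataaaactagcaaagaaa
Slfn2 (chr11:83064992-83065111, plus strand): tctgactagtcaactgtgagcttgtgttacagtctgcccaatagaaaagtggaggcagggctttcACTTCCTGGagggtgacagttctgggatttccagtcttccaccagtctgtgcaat

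The response element core stood 45 bases before the start of Slfn9 and 48 bases before that of Slfn8, counted to its first base. It was also found in the window of Slfn5, as GAAAAAGAAA 155 bases before the listed start, and in none of the windows of Slfn1, Slfn2, Slfn3 and Slfn4. Of all 32851 windows in the table, 3.44% held the core on either strand. The gamma-activated site (TTCNNNGAA, which reads the same on both strands) was in 0 of the 7 members' windows and in 8.30% of all windows. The shared run ACTTCCTGG was chosen after the sequences were seen and was in 0.843% of all windows on either strand. Aligned over the 250 bases before the start, Slfn8 and Slfn9 were identical at 80.2% of columns, while the other pairs of members lay between 45.5% and 53.4%. These matches describe letters, and no binding was measured.

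The deposited values are log2 levels made by RMA. It gives the probe values of all arrays the same distribution before it reduces each probe set to 1 value. After that step the distributions of the arrays can still differ. Differences are differences of these log2 levels, tested with limma across 14953 genes, and a call needed a two-sided p under 0.05 after Benjamini-Hochberg adjustment. Genes whose mean over the arrays was below the 25th percentile of all genes (log2 5.21) were not tested. Slfn1, with a mean of 4.65, lay below that floor, and the 6 other members passed. The lowest of the 6, Slfn4, had a mean of 5.52 and lay above the floor on every array, so none passed through 1 group alone. With 2 arrays against 2, the smallest p that exact permutation allows is 0.333. FAP markers averaged between 10.80 and 10.93 (log2) per array over the 11 measured, and the arrays' correlations with each other all rounded to 0.99. In bulk RNA of this kind, fewer cells of a type and less RNA per cell cannot be told apart.

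Slfn8 and Slfn9 rose with 5'ss-VMO, and they were the 2 members called among the 6 tested. Both belong to group III. Over all genes, 0.502% of the 14953 tested were called higher in this comparison and 0.0803% lower. Slfn9 was at 8.08 and 8.15 (log2) on the 5'ss-VMO arrays, against 7.56 and 7.65 on the control arrays. Slfn8 was at 8.52 and 8.56 on the 5'ss-VMO arrays, against 8.04 and 8.14 on the control arrays. For both genes the 5'ss-VMO arrays lay above both control arrays with a gap of 0.43 for Slfn9 and 0.38 for Slfn8, wider than the difference between replicate arrays of either gene in any group. Slfn9 rose by 0.51 ± 0.085 (log2, SE, n = 2 arrays per group; 1.42-fold, limma adjusted p = 0.0415). Slfn8 rose by 0.45 ± 0.076 (1.37-fold, limma adjusted p = 0.0415).

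Both calls needed all 4 of the arrays compared. With single arrays left out, Slfn9 lay between 0.46 and 0.55 and Slfn8 between 0.40 and 0.50, but both missed the threshold whenever 1 of the 4 arrays compared was missing. The limma adjusted p of Slfn9 was 0.235 and 0.139 without control arrays 1 and 2, and 0.120 and 0.183 without 5'ss-VMO arrays 1 and 2. That of Slfn8 was 0.234 and 0.115 without control arrays 1 and 2, and 0.129 and 0.18 without 5'ss-VMO arrays 1 and 2. Neither was called with dim genes kept in the test (adjusted p = 0.124 for each) or with a further quantile normalization (adjusted p = 0.0874 for Slfn9 and 0.0814 for Slfn8).

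**Figure D1:**
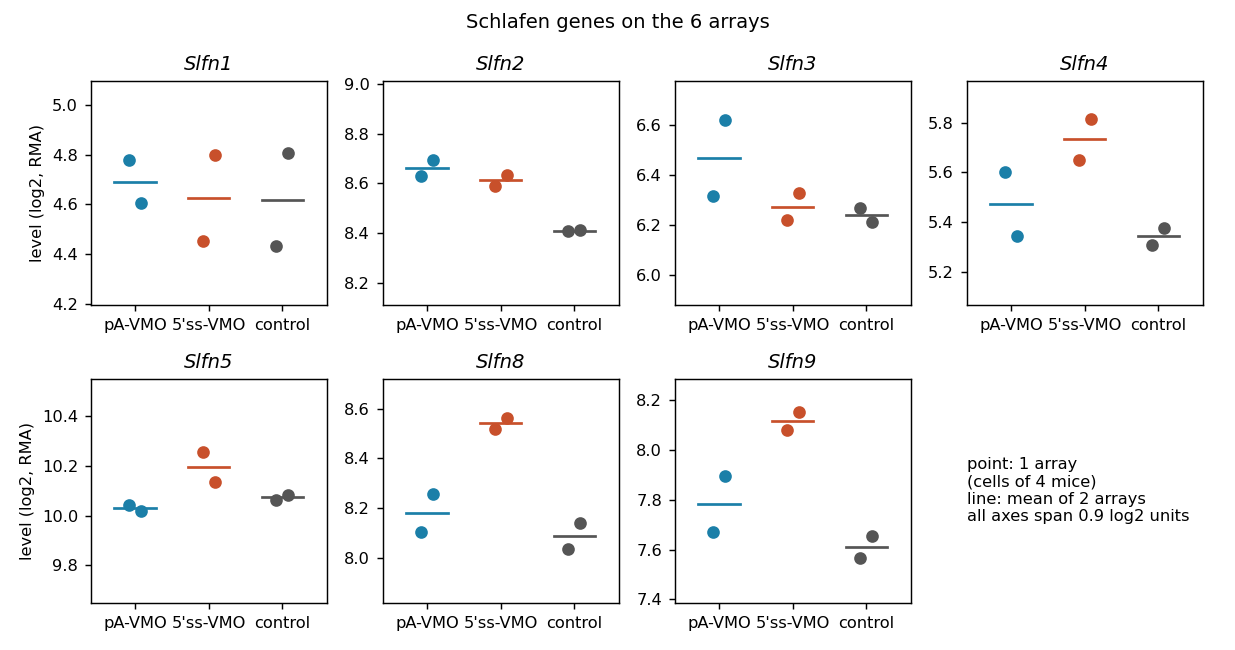
Level of each Schlafen gene (y axis, log2 RMA value; every panel spans 0.9 log2 units) on the arrays of the pA-VMO, 5'ss-VMO and control groups. Points are arrays and lines are means of 2 arrays. The 5'ss-VMO arrays of Slfn8 and Slfn9 stand above all other arrays, while both treated groups of Slfn2 stand above control.

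Slfn5, the other group III gene, encodes an interferon-inducible nuclear protein. It was at 10.26 and 10.14 (log2) on the 5'ss-VMO arrays, against 10.06 and 10.08 on the control arrays. The arrays did not overlap, but the gap of 0.05 was smaller than the difference between the 5'ss-VMO arrays themselves. The difference of 0.12 ± 0.068 did not pass (log2, SE; adjusted p = 0.451), and its 95% interval ran from -0.03 to 0.28.

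In group II, Slfn4 lay higher with 5'ss-VMO without passing the test. Slfn4 is best known from macrophages and other myeloid cells, where interferon induces it. It was at 5.65 and 5.82 (log2) on the 5'ss-VMO arrays, against 5.31 and 5.38 on the control arrays. The groups were separated by 0.27, and the difference was 0.39 ± 0.096 (log2, SE; adjusted p = 0.143; 95% interval 0.17 to 0.61). Slfn3, studied in T cells and in the intestinal epithelium of rodents, was at 6.22 and 6.33 on the 5'ss-VMO arrays, against 6.27 and 6.21 on the control arrays. These arrays overlapped, with a difference of 0.03 ± 0.099 (adjusted p = 0.907; 95% interval -0.19 to 0.26).

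In group I, Slfn2 is required in mice to keep T cells quiescent. It was at 8.59 and 8.64 (log2) on the 5'ss-VMO arrays, against 8.41 on both control arrays. The 5'ss-VMO arrays lay above control by at least 0.18, with a difference of 0.20 ± 0.064 that did not pass (log2, SE; adjusted p = 0.233). Slfn1, which restrains the growth of thymocytes, was at 4.46 and 4.80 on the 5'ss-VMO arrays, against 4.43 and 4.81 on the control arrays. Its replicate arrays differed by more than its group means did, and without the filter its difference was 0.01 ± 0.149 (log2, SE; adjusted p = 0.99). The 95% interval of Slfn1, -0.335 to 0.350, was the widest of the 7.

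Over all 7 members, the 5'ss-VMO difference from control was positive for 7, with a median of 0.20 (log2), against a median of -0.01 over all 19938 genes. The smallest, Slfn1 at 0.01 and Slfn3 at 0.03, changed sign with single arrays left out, down to -0.178 and -0.022. In 5 of the 7, both 5'ss-VMO arrays lay above both control arrays, as they did in 23.2% of the genes tested. With an unadjusted p under 0.05 there were 4 members (Slfn2, Slfn4, Slfn8 and Slfn9), where 13.9% of the genes tested had one.

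With pA-VMO, none of the 6 tested members was called against control VMO. Over all genes, 0.00669% were called in that comparison, 1 gene. An unadjusted p under 0.05 was found for 2 members, Slfn2 and Slfn3, where 11.4% of the genes tested had one. The member farthest from control was Slfn2, at 8.63 and 8.69 (log2) on the pA-VMO arrays, against 8.41 on both control arrays. Its difference was 0.25 ± 0.064 (log2, SE; adjusted p = 0.251), and its pA-VMO arrays lay above control by at least 0.22. Slfn2 thus lay above control with each of the reagents, and its 2 differences share the same control arrays. Slfn3 was at 6.32 and 6.62 on the pA-VMO arrays, against 6.27 and 6.21 on the control arrays. Its pA-VMO arrays lay farther apart than its difference from control of 0.23 ± 0.099 (adjusted p = 0.423), and the difference was 0.08 without pA-VMO array 2 and 0.38 without pA-VMO array 1.

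Slfn9 and Slfn8, called with 5'ss-VMO, were not called with pA-VMO. Slfn9 was at 7.67 and 7.90 (log2) on the pA-VMO arrays, with a difference from control of 0.17 ± 0.085 (adjusted p = 0.481). Slfn8 was at 8.10 and 8.26, which overlapped the control arrays, with a difference of 0.09 ± 0.076 (adjusted p = 0.69). Slfn4 was at 5.60 and 5.34, also overlapping control, with a difference of 0.13 ± 0.096 (adjusted p = 0.653). Slfn5 was the member with the pA-VMO arrays below control, at 10.04 and 10.02, and differed by -0.04 ± 0.068 (adjusted p = 0.849). Slfn1, which overlapped control at 4.78 and 4.60, differed by 0.07 ± 0.149 without the filter (adjusted p = 0.916). The differences of Slfn9, Slfn8, Slfn4 and Slfn1 moved when single arrays were left out. That of Slfn5 stayed between -0.055 and -0.031. Without pA-VMO arrays 1 and 2 the difference was 0.29 and 0.06 for Slfn9, 0.17 and 0.01 for Slfn8, and 0.0018 and 0.26 for Slfn4. Without control arrays 1 and 2 that of Slfn8 was 0.04 and 0.14. The median of the 7 differences was 0.13, against 0.02 over all genes, and was 0.08 without pA-VMO array 2 and 0.20 without control array 2. In 3 members both pA-VMO arrays lay above both control arrays, as in 24.1% of the genes tested, and in 1 both lay below, as in 18.8%.

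**Figure D2:**
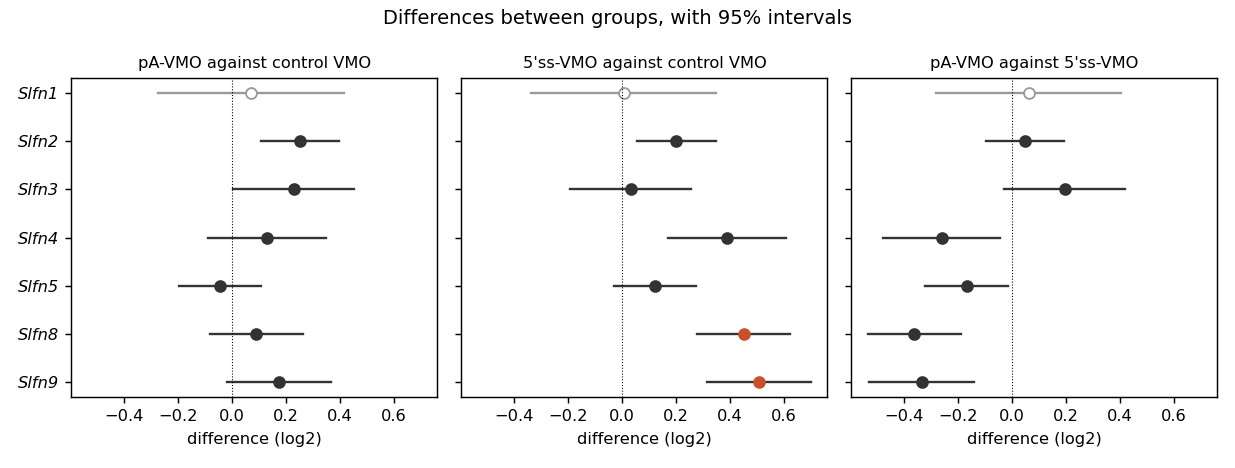
Difference of group means (x axis, log2) for each Schlafen gene in the 3 comparisons, with 95% intervals from limma. Orange points are the 2 called genes, and open grey points are Slfn1, fitted without the filter on dim genes. Slfn9 at 0.51 and Slfn8 at 0.45 were called against control with 5'ss-VMO, and no member was called in either of the other comparisons.

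The direct comparison of the reagents gave no calls, and 4 members lay lower with pA-VMO than with 5'ss-VMO. In Slfn8, Slfn9, Slfn4 and Slfn5 both pA-VMO arrays lay below both 5'ss-VMO arrays, as in 23.7% of the genes tested. None of the 6 tested members passed, where 0.0602% of all genes tested were called. An unadjusted p under 0.05 was found for the same 4 members, where 15.9% of the genes tested had one. Slfn8 differed by -0.36 ± 0.076 (log2, pA-VMO minus 5'ss-VMO, SE; adjusted p = 0.0906; 95% interval -0.53 to -0.19). Slfn9 differed by -0.33 ± 0.085 (adjusted p = 0.128; 95% interval -0.53 to -0.14). Slfn4 differed by -0.26 ± 0.096 (adjusted p = 0.241) and Slfn5 by -0.17 ± 0.068 (adjusted p = 0.279).

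Slfn2, Slfn3 and Slfn1 had pA-VMO means above the 5'ss-VMO means, with overlapping arrays. Slfn2 differed by 0.05 ± 0.064 (log2, SE; 95% interval -0.095 to 0.195), Slfn3 by 0.20 ± 0.099 (95% interval -0.03 to 0.42) and Slfn1, without the filter, by 0.06 ± 0.149 (95% interval -0.28 to 0.41). These intervals do not show that the reagents act alike on the 3 genes. A stricter filter, which tested only genes above the median level, called Slfn8 (adjusted p = 0.0476), as did a variance prior that follows the mean level (adjusted p = 0.0237).

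Other Schlafen genes on the array gave the family's wider picture. Slfn10-ps, a gene of the same cluster whose symbol marks it as a pseudogene, rose with 5'ss-VMO. It was at 7.85 and 7.75 (log2) on the 5'ss-VMO arrays, against 7.30 and 7.38 on the control arrays. The rise was 0.46 ± 0.069 (log2, SE; 1.38-fold, limma adjusted p = 0.0272), and it was missed when any of the 4 arrays compared was left out (adjusted p from 0.0721 to 0.174), with dim genes kept in the test (adjusted p = 0.0891) and with a further quantile normalization (adjusted p = 0.0573). With pA-VMO it was at 7.48 and 7.49, a difference of 0.14 ± 0.069 (adjusted p = 0.478). Slfnl1, a Schlafen-like gene on another chromosome, differed by -0.16 ± 0.068 with 5'ss-VMO (adjusted p = 0.349). Slfn5os, a non-coding gene on the strand opposite to Slfn5 that overlaps it, differed by 0.09 ± 0.076 (adjusted p = 0.653). Slfn14 was not analysed here.

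The called genes were neighbours within the cluster. In gene order the named Schlafen genes measured run Slfn5, Slfn9, Slfn8, Slfn10-ps, Slfn2, Slfn1, Slfn4 and Slfn3, and the 3 with the largest 5'ss-VMO differences, Slfn9, Slfn8 and Slfn10-ps, stand next to each other. Of the flanking protein-coding genes, Nle1 and Unc45b on one side differed by 0.03 and -0.08 with 5'ss-VMO, and Ap2b1 on the other by -0.01 (adjusted p from 0.745 to 0.945). Slfn8, Slfn9 and Slfn10-ps are closely related in sequence, and a probe of one may also read another, so how much each gene rose is uncertain. Over the 6 arrays the levels of Slfn8 and Slfn9 had a Pearson r of 0.99, the highest of the 21 pairs of members, while that of Slfn3 and Slfn5 was -0.55.

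**Figure D3:**
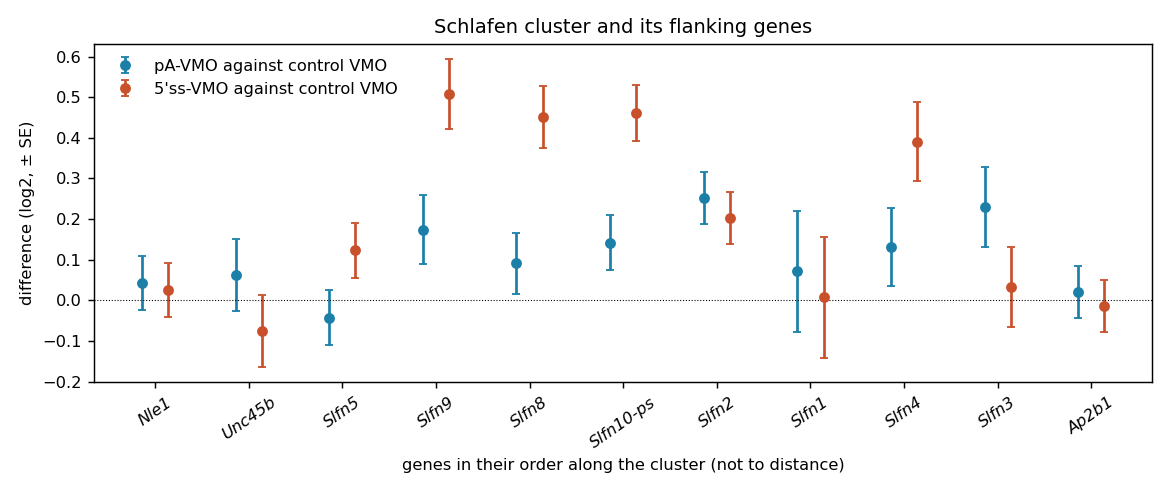
Difference from control VMO (y axis, log2, bars are SE) under pA-VMO and 5'ss-VMO for the measured genes in their order along the Schlafen cluster and for the genes on either side. The x axis gives order and not distance. The 5'ss-VMO differences of Slfn9, Slfn8 and Slfn10-ps lie between 0.45 and 0.51, and those of the flanking Nle1, Unc45b and Ap2b1 between -0.08 and 0.03.

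Interferon-stimulated genes were shifted in the same comparison. Of a list of 35 such genes, 29 were tested, and 13 rose with 5'ss-VMO while 0 fell. Of all genes tested, 0.502% were called higher and 0.0803% lower. Both 5'ss-VMO arrays lay above both control arrays in 28 of the 30 measured, where 23.2% of all genes tested did. The median difference of the 30 measured was 0.46 (log2), against -0.01 over all genes. Oas2, which senses double-stranded RNA, rose by 0.82 (adjusted p = 0.00215), the RNA helicase Dhx58 by 0.62 (adjusted p = 0.0105), the nucleic acid sensor Zbp1 by 0.58 (adjusted p = 0.0105) and Trim30a by 0.54 (adjusted p = 0.0105). With pA-VMO, 0 of the 29 were called, where 0.00669% of all genes tested were, and the median was 0.13. Of the 30 measured, 23 were positive with pA-VMO and 7 negative. Both pA-VMO arrays lay above both control arrays in 18, where 24.1% of all genes tested did. In 0 both lay below, where 18.8% did. The list was drawn up with earlier results of these data known. Many calls outside the family were also lost when single arrays were left out, as those of the members were. Of the 16 genes outside the family named here as changed with 5'ss-VMO, Slfn10-ps aside, Oas2 was the 1 still called with each of the 4 arrays compared left out in turn (adjusted p up to 0.0347). For 10 of the 16, leaving out any of the 4 ended the call. With dim genes kept in the test 8 of the 16 were called, and C1qa, C1qc, Chrna1, Dpp4, Irf7, Oas1a, Stat2 and Usp18 were not. The 16 include Ifi209, listed with the nearest profiles.

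Genes of the interferon receptors and their signalling held 3 calls. Of the 15 tested, 3 rose with 5'ss-VMO and 0 fell, where 0.502% of all genes tested were called higher and 0.0803% lower. They were Usp18, a brake on the type I interferon receptor, by 0.53 (adjusted p = 0.0131), the transcription factor Irf7 by 0.51 (adjusted p = 0.0283) and Stat2, part of the complex that binds response elements, by 0.49 (adjusted p = 0.0166). Irf9, the DNA-binding part of that complex, lay at 0.26 (adjusted p = 0.157). The median of the 15 was 0.07. With pA-VMO 0 of the 15 were called, where 0.00669% of all genes tested were, and their median was 0.02.

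**Figure D4:**
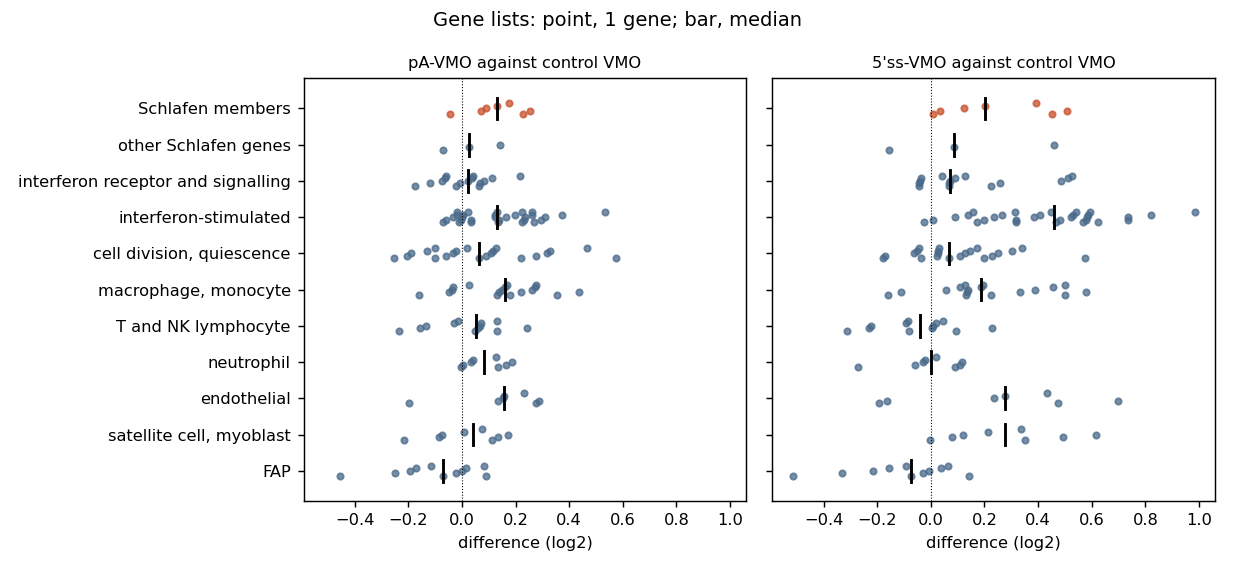
Difference from control VMO (x axis, log2) of single genes in each list, with pA-VMO on the left and 5'ss-VMO on the right. Points are genes and black bars are medians. With 5'ss-VMO the Schlafen median was 0.20, the interferon-stimulated median 0.46, the endothelial and the satellite cell medians 0.28 each and the macrophage median 0.19, while T and NK lymphocyte and FAP markers had medians of -0.04 and -0.07.

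Schlafen genes are also expressed in leukocytes, so markers of other cells were read beside them. Of 17 macrophage and monocyte markers measured, 15 were tested and 2 rose with 5'ss-VMO, where 0.502% of all genes tested were called higher. The 2 were the complement genes C1qc, by 0.50 (limma adjusted p = 0.0249), and C1qa, by 0.39 (limma adjusted p = 0.0472). C1qa was called under 5 of 9 other settings (adjusted p up to 0.136) and under 0 of the 6 fits with 1 array left out. Fcer1g lay at 0.58 (adjusted p = 0.0707) and Adgre1, the F4/80 antigen, at 0.45 (adjusted p = 0.108). The mean level of the 17 was 6.60 and 6.59 (log2) after pA-VMO and 6.68 and 6.66 after 5'ss-VMO, against 6.37 and 6.53 after control VMO. Their median difference was 0.19. In 13 of the 17 both 5'ss-VMO arrays lay above both control arrays, where 23.2% of all genes tested did, and in 2 both lay below. Ccr2 and Cd163 were below the filter floor. The part of macrophages in the Schlafen differences was not tested.

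Lymphocyte and neutrophil markers gave no calls, which says little for lists this short. Over all genes tested, 0.502% were called higher and 0.0803% lower with 5'ss-VMO. The share called was 0.00669% with pA-VMO and 0.0602% between the reagents. Of 12 T and NK cell markers measured, 7 were tested and 0 were called in any comparison. The median with 5'ss-VMO was -0.04 (log2), and Cd3d, Cd3g, Il7r, Ncr1 and Klrb1c were below the filter floor. Of 8 neutrophil markers 4 were tested and 0 called, with a median of -0.00035, and S100a8, Ly6g, Cxcr2 and Retnlg were below the floor. Their mean level ran from 4.82 to 4.89 on the 5'ss-VMO arrays, against 4.84 to 4.89 on the control arrays. B cell and dendritic cell markers had 0 of 3 and 0 of 5 called.

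Markers of other muscle cells also had positive median differences with 5'ss-VMO. The 7 endothelial markers measured had a median difference of 0.28 (log2), above the Schlafen median of 0.20. In 3 of the 7 both 5'ss-VMO arrays lay above both control arrays, where 23.2% of all genes tested did, and in 2 both lay below. Of the 6 tested, the cadherin Cdh5 rose by 0.70 (adjusted p = 0.00551), while Pecam1 lay at 0.47 (adjusted p = 0.0517) and Tek at -0.19 (adjusted p = 0.312). Emcn, which was below the floor, lay at 0.43 without the filter and ran from 0.18 to 0.69 with single arrays left out. It was called under 0 of 7 other settings. The endothelial mean level was 6.22 and 6.18 after 5'ss-VMO and 6.11 and 6.08 after pA-VMO, against 5.82 and 6.07 after control VMO. With pA-VMO the endothelial median difference was 0.16, with 6 of the 7 positive.

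The 8 satellite cell and myoblast markers, all tested, had a median of 0.28 (log2) with 5'ss-VMO and 0.04 with pA-VMO. With 5'ss-VMO 7 of the 8 were positive. In 5 both 5'ss-VMO arrays lay above both control arrays, where 23.2% of all genes tested did. The acetylcholine receptor gene Chrna1 rose by 0.62 (adjusted p = 0.0283). Des, the muscle filament protein desmin, lay at 0.49 (adjusted p = 0.0707), Myog at 0.34 (adjusted p = 0.176) and Myod1 at 0.21 (adjusted p = 0.207). Their mean level was 7.33 and 7.22 after 5'ss-VMO, against 6.94 and 7.07 after control VMO. The 11 FAP markers had a median of -0.07 with pA-VMO and of -0.07 with 5'ss-VMO. Their mean level was 10.80 and 10.83 after pA-VMO and 10.81 and 10.81 after 5'ss-VMO, against 10.93 and 10.89 after control VMO. With pA-VMO both treated arrays lay below both control arrays in 6 of the 11 and above in 2. Of all genes tested, 18.8% lay below and 24.1% above. With 5'ss-VMO it was 5 below and 2 above, where 23.2% of all genes tested lay above. With 5'ss-VMO 3 of the 11 were positive, up to 0.14, and 8 were negative. Dpp4, which marks a progenitor subset of fibroblasts, fell by 0.52 (adjusted p = 0.0318), while Lum lay at -0.33 (adjusted p = 0.0636), Cd34 at -0.21 (adjusted p = 0.242) and Gsn at -0.16 (adjusted p = 0.314). The part of these cells in the Schlafen differences was not tested.

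Groups of genes named for Schlafen functions showed no calls in these arrays, which says little for lists this short. Over all genes tested, 0.502% were called higher and 0.0803% lower with 5'ss-VMO, and 0.00669% were called with pA-VMO. Of 21 cell division and quiescence genes 0 were called with 5'ss-VMO or with pA-VMO, with medians of 0.07 and 0.06 (log2). In 9 of the 21 both treated arrays lay above both control arrays with each reagent. Over all genes tested 23.2% did with 5'ss-VMO and 24.1% with pA-VMO. Both lay below in 3 of the 21 with 5'ss-VMO and in 6 with pA-VMO. Of 13 genes of tRNA handling and translation control 0 were called with 5'ss-VMO or with pA-VMO, with medians of 0.01 and -0.02.

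The genes most like the Schlafen genes over the 6 arrays were named by a rule, as a description. For the mean profile of the 6 tested members the 6 genes outside the family with the highest Pearson r were Gse1, Mpeg1, Mtbp, Jpt2, Arhgef1 and Ifi209, with r from 0.989 to 0.997 among 11179 candidates. For Slfn9, the member with the widest range over the arrays (0.59), the 4 were Samhd1, Ifit2, Oas1a and Irf7, with r from 0.990 to 0.996 among 4569 candidates. The points of such a correlation are the same 6 arrays for every gene. Both profiles are high on the 5'ss-VMO arrays and low on the control arrays. A rise with 5'ss-VMO in genes picked this way thus follows from the choice and is no separate result. Mpeg1, a perforin-like gene of macrophages, rose by 0.70 with 5'ss-VMO (adjusted p = 0.00551). Samhd1, which degrades nucleotides and restricts viruses, lay at 0.32 (adjusted p = 0.101), while Ifit2 rose by 0.73 (adjusted p = 0.0105) and Oas1a by 0.58 (adjusted p = 0.0415).

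**Figure D5:**
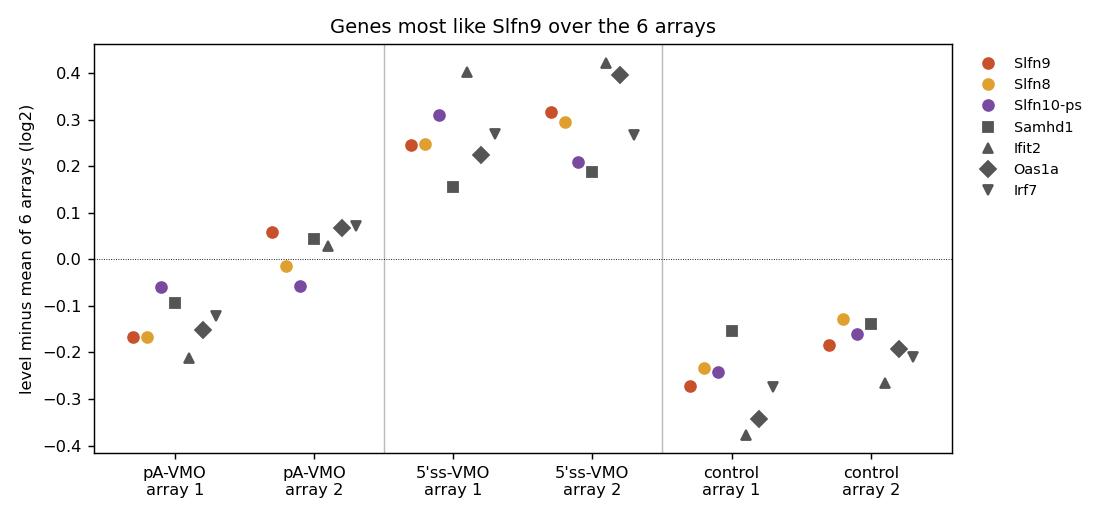
Level on each array minus the gene's mean over the 6 arrays (y axis, log2) for Slfn9, Slfn8 and Slfn10-ps and for the 4 genes most like Slfn9. Each symbol is 1 gene on 1 array. All 7 genes are above their means on both 5'ss-VMO arrays and below them on both control arrays. For the 4 picked by likeness to Slfn9 this follows from the choice.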

How the data were processed

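Gene expression was measured on Affymetrix Mouse Gene 1.0 ST arrays from 6 pools of cells, 2 per group. The deposited log2 values were made by the authors with Affymetrix Expression Console and RMA, per the submitters' processing notes; the version and settings are not stated. RMA hides changes in total RNA per cell and compresses those of dim probe sets. No scan dates were used here, so array batches could not be tested. Precision is limited by the number of arrays, and the median SE of a difference was 0.07 (log2).

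Of 35556 probe sets, 21789 have 1 gene symbol in the platform annotation, 1621 several and 12146 none. They stand for 19938 genes; for the 999 with several probe sets the one with the highest mean was taken. Genes below the 25th percentile were left out, which left 14953. Group means were fitted on all 6 arrays with limma 3.58.1 in R 4.3.3, without a block, with 3 residual and 6.06 prior degrees of freedom, and p-values adjusted by Benjamini-Hochberg. Per the series' design text, each replicate is a pool of cells from 4 mice.

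The members and lists were chosen with earlier results of these data known. All members were named, with up to 4 genes of smallest p per list for 5'ss-VMO against control, the nearest profiles, and the flanking genes of the cluster. Lists with no called gene in that comparison are given as counts, a choice made after the values were seen. Of the listed genes, 16 were not analysed here. Alternatives were the filter, the probe set rule, the variance prior, the normalization, the arrays fitted, a replicate block and each array left out.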

Additional observations from a re-analysis of the deposited data

How the results depend on the processing

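With 5'ss-VMO against control, 2 Schlafen members were called under 7 of the 9 settings beside leaving out arrays, and 0 with no filter and with quantile normalization over again; with single arrays left out the count ran from 0 to 2. For pA-VMO against 5'ss-VMO it was 1 with the filter at the median and with a variance trend, and 0 otherwise. For pA-VMO against control it was 0 under every setting run. Over all genes, the 87 called with 5'ss-VMO became 24 with no filter, 181 with the filter at the median and 266 with a variance trend, and 8 to 76 with single arrays left out. The 1 gene called with pA-VMO became 0 with no filter, 51 with a variance trend and 0 to 2 with single arrays left out. The 9 called between the reagents became 3 with no filter, 102 with the filter at the median, 15 with the mean of all probe sets, 197 with a variance trend, 5 with quantile normalization over again, 111 with the arrays centred on their medians, 23 with the replicate block and 1 to 18 with single arrays left out. Of the 16 named genes outside the family called with 5'ss-VMO, quantile normalization over again ended the calls of C1qa and Oas1a, and the fit of the 2 groups alone and the replicate block each that of C1qa. The cause of these moves was not tested. A filter changes the number of genes adjusted over and also the SE. That of Slfn8 with 5'ss-VMO against control was 0.0759 with the filter and 0.0803 without it.

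Differences that changed sign were all uncalled. With single arrays left out, Slfn1 ran from -0.114 to 0.257 with pA-VMO against control (-0.014 without pA-VMO array 1), from -0.178 to 0.194 with 5'ss-VMO against control (-0.164 without 5'ss-VMO array 2) and from -0.108 to 0.236 between the reagents (-0.022 without pA-VMO array 1). Slfn3 ran from -0.022 to 0.0887 with 5'ss-VMO. Among the flanking genes with 5'ss-VMO, Nle1 was -0.0032 with quantile normalization over again and -0.0029 to 0.0547 with single arrays left out, Unc45b -0.173 to 0.0216 (0.0033 without 5'ss-VMO array 1) and Ap2b1 -0.0544 to 0.0261.

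Same-numbered arrays did not deviate together: the correlation of replicate differences between groups ran from -0.102 to 0.021 over genes, and the number was not taken as a pairing. With the replicate block the adjusted p of Slfn8 was 0.0306 and that of Slfn9 0.0225 for 5'ss-VMO against control.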
